A study of Homo sapiens with 2 samples.

Results

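The mitochondrial ribosomal protein genes were taken as the rows with a numeric gene identifier whose symbol begins with MRPL or MRPS and a digit. The rule gave 78 of the 16654 genes with values, 49 named MRPL (large subunit) and 29 named MRPS (small subunit). The cells were HUCCT-1, an established human intrahepatic cholangiocarcinoma line described in the labels as tumor cells, grown in RPMI1640 medium with serum. One library came from cells given 5 µM XY101, an antagonist of the nuclear receptor RORγ, for 48 h, and the other from cells given vehicle for the same time, titled Con2. Poly(A)-selected RNA was sequenced, and the study used it to ask which transcripts differ when RORγ is blocked. The treatment text also names GSK805, another RORγ antagonist, which is not analysed here. With 1 library per condition there is no replicate spread, so no p-value, SD or standard error is given and every difference describes these 2 libraries. In such bulk RNA a lower value from fewer cells of a kind and one from less RNA per cell cannot be told apart.

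Mitochondria keep their own ribosome, which translates the few proteins encoded by mitochondrial DNA, all of them subunits of the oxidative phosphorylation complexes. Its RNAs are mitochondrial, but its proteins are made in the cytosol from nuclear genes scattered over the chromosomes and are imported. The large subunit forms peptide bonds and feeds the new protein through an exit tunnel to the inner membrane, whereas the small subunit binds the messenger RNA and decodes it. Part of the proteins descend from the bacterial ribosome, and the others were added in mitochondria.

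The values are FPKM, fragments scaled to transcript length and to all mapped fragments of the library. Levels of different genes are therefore per length and depend on the length assumed for each gene, and abundance below means FPKM. Differences are log2 ratios of XY101 over vehicle after adding 0.1 FPKM to both values, and negative ratios mean a lower value with XY101. The FPKM values summed to 832820 in the XY101 library and 858282 in the vehicle library, and 14719 and 14666 genes were above 0 in the XY101 and the vehicle library. The spacing of low FPKM values gave an approximate depth of 17500000 fragments for each library. Of the epithelial markers of bile duct cells, all 6 were expressed in both libraries, with KRT7 at 4185 FPKM with XY101 and 5080.2 FPKM with vehicle and SOX9 at 7.41 and 14.6 FPKM in the same order. EPCAM alone of the 6 was higher with XY101, at 275 FPKM against 254 FPKM with vehicle, and the summed level of the 6 was 8326 FPKM with XY101 and 9956 FPKM with vehicle. Markers of other cell types that had values were at or below 0.5 FPKM in both libraries, except COL1A1 at 9.82 FPKM with XY101 and 7.01 FPKM with vehicle and CD14 at 3.96 FPKM with XY101 and 2.21 FPKM with vehicle. The leukocyte marker CD3E and the hepatocyte markers ALB and TTR had no values, which left APOA1 alone for hepatocytes. The leukocyte marker PTPRC was listed at 0 FPKM with XY101 and 0.02 FPKM with vehicle. Any part of these differences in the results below was not tested.

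Before the values, promoter stretches of 7 members are shown, chosen after the values were seen as examples from the ends of the order of ratios and the top of the order of levels that hold one of 4 motifs searched. MRPS33, the small-subunit gene with the highest ratio, holds one of the motifs but was left out. At the median annotated transcript length its ratio rests on about 50 fragments with XY101 and 42 with vehicle. MRPL52, which is shown, has about 130 and 166. The stretches were read 5′ to 3′ on the gene's strand from RefSeq promoters (GRCh38.p14), which run from 250 bases before the transcription start to 50 after it. Capitals mark matches, on either strand, to the palindromic NRF1 motif (NRF1 regulates nuclear genes for mitochondria; its 10 letters are the capitals in the MRPL17 stretch), CCGGAAG (the core bound by GABP and other ETS factors, read as CTTCCGG on the other strand) or AAGATGGCG (YY1). MRPL17, with the lowest ratio of all members, lies on chromosome 11, and its stretch at chr11:6683387-6683446, minus strand, covers bases -106 to -47 from the start with an NRF1 match:
MRPL17: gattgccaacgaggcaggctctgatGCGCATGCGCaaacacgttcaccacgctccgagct
MRPL52, with the next lowest ratio, has 2 YY1 matches in chr14:22829764-22829856, plus strand, bases -123 to -31:
MRPL52: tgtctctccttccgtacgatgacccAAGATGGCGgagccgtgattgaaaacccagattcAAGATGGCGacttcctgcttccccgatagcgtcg
MRPL50, with the highest ratio, has a YY1 match just after its start, in the first exon, at chr9:101398576-101398605, minus strand, bases 14 to 43:
MRPL50: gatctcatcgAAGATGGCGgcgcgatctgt
MRPS34, with the lowest ratio of the small subunit, has 3 ETS matches in chr16:1773135-1773230, minus strand, bases -96 to -1:
MRPS34: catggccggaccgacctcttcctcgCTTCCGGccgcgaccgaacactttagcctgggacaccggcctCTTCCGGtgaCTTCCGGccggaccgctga
MRPS22, with the highest ratio among small-subunit members above 20 FPKM, has 2 ETS matches in opposite directions, a base apart, in chr3:139343882-139343946, plus strand, bases -112 to -48:
MRPS22: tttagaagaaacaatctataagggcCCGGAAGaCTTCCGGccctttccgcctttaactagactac
MRPL51, the most abundant large-subunit transcript, has 2 ETS matches in opposite directions in chr12:6493335-6493406, minus strand, bases -144 to -73:
MRPL51: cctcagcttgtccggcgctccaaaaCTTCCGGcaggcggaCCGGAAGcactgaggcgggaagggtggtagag
MRPS24, the most abundant small-subunit transcript, has a YY1 match after its start at chr7:43869479-43869508, minus strand, bases 10 to 39:
MRPS24: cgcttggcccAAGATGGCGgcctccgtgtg
A match is a description of letters and not evidence of binding.

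The 78 genes were expressed in both libraries, all above a mean of 1 FPKM. Their median was 63.0 FPKM with XY101 and 64.8 FPKM with vehicle, against 11.5 FPKM with XY101 and 10.6 FPKM with vehicle over the 10894 genes at a mean of at least 1 FPKM, and 86.0% of those genes lay below the members' median level. MRPL42, MRPS33, MRPL19, MRPL50 and MRPS25 were below the level of the median gene. Although the proteins are built into 1 particle, the transcript levels spanned 298-fold with XY101 and 275-fold with vehicle. How far this span depends on the transcript length assumed for each gene was not tested. The longest annotated coding transcript has 15560 nucleotides for MRPL42 and 898 for MRPL51, the lowest and the highest of the large subunit in FPKM. MRPL51, a mitochondria-specific protein, had 488 FPKM with XY101 and 451 FPKM with vehicle. MRPL12, a stalk protein, had 202 FPKM with XY101 and 251 FPKM with vehicle. MRPL33, MRPL53 and MRPL36 completed the 5 highest of the large subunit, at 199, 196 and 203 FPKM with XY101 and 237, 210.3 and 187 FPKM with vehicle. At the low end stood MRPL42 at 1.81 FPKM with XY101 and 2.18 FPKM with vehicle, then MRPL19 at 5.89 and 6.56 FPKM, MRPL50 at 7.45 and 5.43 FPKM, MRPL30 at 11.5 and 12 FPKM and MRPL22 at 11.6 and 11.9 FPKM, each with XY101 given before vehicle. The order of the members was nearly the same in both libraries, with Pearson's r of 0.99 between log2 levels and Spearman's rho of 0.99, across 78 genes, which are not independent replicates.

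In the small subunit MRPS24, a bacterial-type protein, stood far above the others at 539 FPKM with XY101 and 599 FPKM with vehicle. The next levels were those of MRPS15 at 119 FPKM with XY101 and 139 FPKM with vehicle, MRPS18B at 97.0 and 117 FPKM, MRPS34 at 90.5 and 112 FPKM, and MRPS2 at 96.1 and 105 FPKM. The lowest were MRPS33 at 6.38 FPKM with XY101 and 5.43 FPKM with vehicle, MRPS25 at 9.42 and 10.6 FPKM, MRPS23 at 11.1 and 12.3 FPKM, MRPS14 at 13.2 and 14.1 FPKM, and MRPS31 at 13.4 and 13.6 FPKM. Transcripts of 36 members have annotated pseudogene copies, 79 in all and 8 for MRPS21 alone, and 23 members overlap exons of another coding gene, such as MRPS24 with the read-through gene URGCP-MRPS24. How reads of such copies and overlaps were assigned is not settled, so levels such as that of MRPL42, with 5 pseudogenes, are uncertain.

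**Figure D1:**
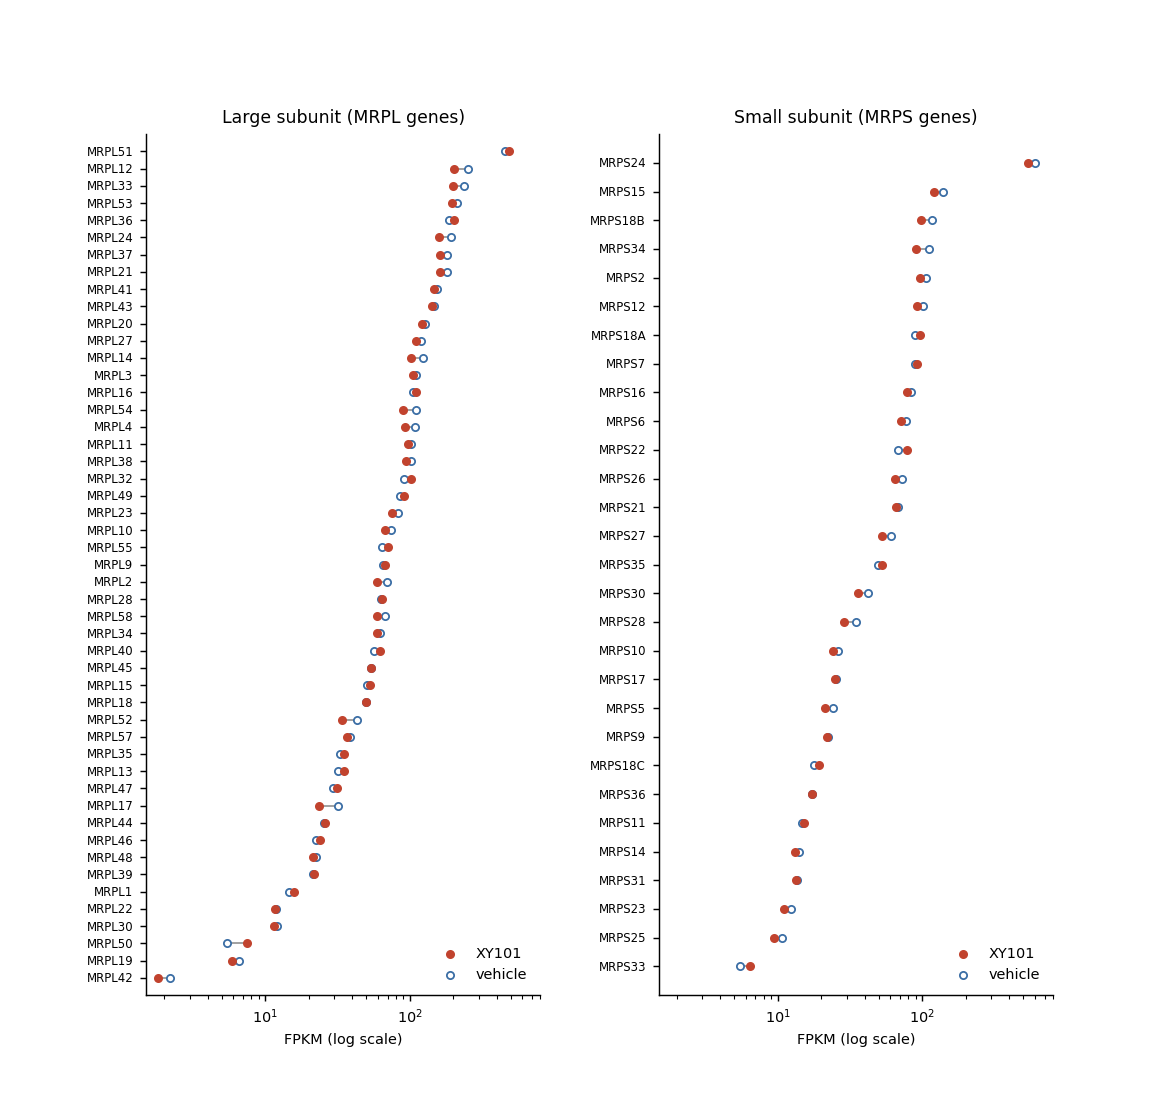
FPKM (log scale) of each member in the XY101 library (filled circles) and the vehicle library (open circles), 1 library each, with large-subunit genes on the left and small-subunit genes on the right, ordered by mean level. The line joining the circles of a gene is short against the spread between genes, which runs from 1.81 to 539 FPKM with XY101 and from 2.18 to 599 FPKM with vehicle.

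No mitochondrial ribosomal protein gene differed by 1.5-fold or more between the libraries. Over all genes at a mean of at least 1 FPKM, 4.9% passed that fold upwards with XY101 and 2.32% downwards, and at 2-fold the shares were 1.17% and 0.698%. At a log2 ratio of 0.322 or more in size, 1 large-subunit gene was higher (MRPL50) and 2 were lower (MRPL17 and MRPL52), and no small-subunit gene passed, beside 18.9% of all genes higher and 7.51% lower. The other 75 members, 96.2% of the 78, were within 0.322 of a log2 ratio of 0 (MRPL12, at -0.319, just so), against 73.6% of all genes, and 44 members, 56.4%, were within 1.1-fold, against 37.2% of all genes. These shares were not matched for level, and 7102 other genes had a mean of 1 to 20 FPKM, below most members. Within 0.322 lay also 97.5% of genes for cytosolic ribosomal proteins and 96.2% of nuclear genes for oxidative phosphorylation subunits. The narrow range was thus not particular to the members.

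Within this narrow range the members lay slightly to the lower side. The large-subunit genes had a median log2 ratio of -0.06 (quartiles -0.16 and 0.08), with 20 above 0 and 29 below. The small-subunit genes had a median of -0.10 (quartiles -0.17 and -0.004), with 7 above 0 and 22 below. Over all genes the median log2 ratio was 0.09 (quartiles -0.08 and 0.26), with 64.4% above 0 and 35.3% below. Set against that median gene, 10 large-subunit genes were above and 39 below, and 5 small-subunit genes were above and 24 below. The median of each subunit stayed below 0 under every scaling tried. The small-subunit genes as a whole summed to 1945 FPKM with XY101 and 2109 FPKM with vehicle, a log2 ratio of the sums of -0.12. The large-subunit genes summed to 4256 FPKM with XY101 and 4485 FPKM with vehicle, a log2 ratio of -0.08. For the pooled fragments of each subunit, counting error alone would move the log2 ratio by about 0.02 in either direction. Sums of FPKM weight the genes otherwise, and their counting error was not estimated. Whether the subunits differed from each other beyond the variation between cultures cannot be told from 1 library each.

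**Figure D2:**
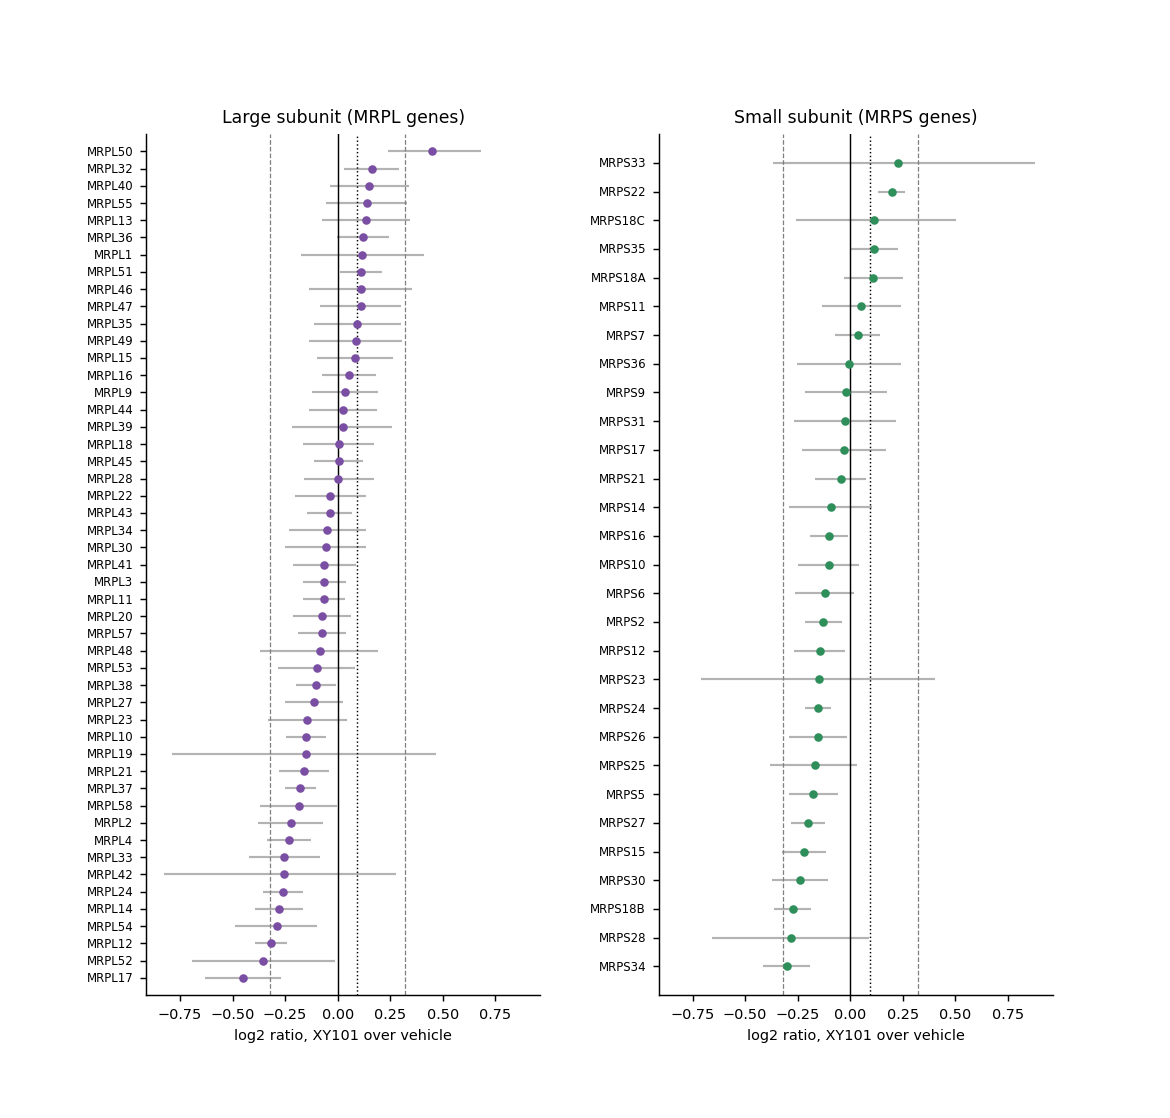
Log2 ratio of XY101 over vehicle for each member, large-subunit genes left and small-subunit genes right, with grey bars for the 95% counting interval (exact binomial, counting error only), a dotted line at the median of all genes (0.09) and dashed lines at -0.322 and 0.322. Most points lie left of the dotted line, 39 of 49 large-subunit and 24 of 29 small-subunit genes, and 3 lie outside the dashed lines.

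Among large-subunit genes the lowest ratio was that of MRPL17, a bacterial-type protein near the exit tunnel, with 23.4 FPKM with XY101 and 32.0 FPKM with vehicle. Its log2 ratio was -0.45, with a 95% counting interval from -0.63 to -0.27. MRPL52, a mitochondria-specific protein, had 33.9 FPKM with XY101 and 43.4 FPKM with vehicle, a log2 ratio of -0.35 (-0.70 to -0.01), for which few fragments were estimated (130 with XY101 and 166 with vehicle). MRPL12 had a log2 ratio of -0.32 (-0.40 to -0.24), and it rested on more fragments, about 2501 with XY101 and 3120 with vehicle. MRPL54, also of the stalk, had 90.1 FPKM with XY101 and 110.2 FPKM with vehicle (-0.29). MRPL14, which sits at the subunit interface, had 102 and 124 FPKM in the XY101 and the vehicle library (-0.28). MRPL24, a tunnel-exit protein, had 160.2 FPKM with XY101 and 192 FPKM with vehicle (-0.26). These 6 genes include bacterial-type and mitochondria-specific proteins and levels of 23.4 to 202 FPKM with XY101, so neither one class nor one level holds them all.

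On the higher side, MRPL50, a mitochondria-specific protein, stood apart with 7.45 FPKM with XY101 and 5.43 FPKM with vehicle, a log2 ratio of 0.45 (0.24 to 0.68). The next ratios were well below it. MRPL32, a protein that must be trimmed by a mitochondrial protease before it is assembled, had 102 FPKM with XY101 and 91.2 FPKM with vehicle (0.16). MRPL40 had 62.3 FPKM with XY101 and 56.1 FPKM with vehicle (0.15). MRPL55 had 70.8 and 64.3 FPKM in the XY101 and the vehicle library (0.14), MRPL13 had 34.9 and 31.8 FPKM (0.13), and MRPL36 had 203 and 187 FPKM (0.12). The abundant MRPL51 was also on this side, with a log2 ratio of 0.11 (0.01 to 0.21). Apart from MRPL50, these ratios lay close to that of the median gene (0.09).

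The remaining large-subunit genes filled the space between. MRPL42, MRPL33, MRPL4, MRPL2, MRPL37 and MRPL21 had log2 ratios of -0.26, -0.25, -0.23, -0.22, -0.18 and -0.16, and MRPL37, with about 2902 fragments with XY101 and 3282 with vehicle, had a narrow interval of -0.25 to -0.11. MRPL19, MRPL57, MRPL20, MRPL3, MRPL41, MRPL30, MRPL34 and MRPL43 lay between -0.15 and -0.04. MRPL28, a bacterial-type protein, was nearly equal at 63.7 FPKM with XY101 and 63.6 FPKM with vehicle, and MRPL39, MRPL44, MRPL9, MRPL16, MRPL15, MRPL49, MRPL35 and MRPL1 lay between 0.02 and 0.11.

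Among small-subunit genes the lowest ratio was that of MRPS34, a mitochondria-specific protein, with 90.5 FPKM with XY101 and 112 FPKM with vehicle, a log2 ratio of -0.30 (-0.42 to -0.19). MRPS28 had 28.7 FPKM with XY101 and 35.0 FPKM with vehicle (-0.28), from about 111 and 135 fragments, and its interval of -0.66 to 0.09 included 0. MRPS18B, one of 3 relatives of bacterial ribosomal protein S18, had 97.0 FPKM with XY101 and 117 FPKM with vehicle (-0.27). The other S18 relatives were on the other side, MRPS18C with 19.1 FPKM with XY101 and 17.7 FPKM with vehicle (0.11) and MRPS18A with 95.6 and 88.6 FPKM (0.11). MRPS15, a bacterial-type protein, had 119 FPKM with XY101 and 139 FPKM with vehicle (-0.22), and MRPS27, a protein with RNA-binding pentatricopeptide repeats, had 52.3 and 60.1 FPKM (-0.20).

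The highest small-subunit ratio, 0.23, belonged to MRPS33, at 6.38 FPKM with XY101 and 5.43 FPKM with vehicle, but it rested on about 50 and 42 fragments, and its interval of -0.37 to 0.88 included 0. MRPS22, a mitochondria-specific protein, had 78.2 FPKM with XY101 and 68.2 FPKM with vehicle, a log2 ratio of 0.20 (0.13 to 0.26), from about 4061 and 3543 fragments. MRPS35 had 52.9 FPKM with XY101 and 48.9 FPKM with vehicle (0.11), and MRPS11 had 15.2 and 14.7 FPKM (0.05). The abundant MRPS24 had a log2 ratio of -0.15. Of the other small-subunit genes, MRPS5, MRPS25, MRPS26, MRPS23, MRPS12, MRPS2, MRPS6, MRPS10, MRPS16 and MRPS14 lay between -0.17 and -0.09, and MRPS21, MRPS17, MRPS31, MRPS9 and MRPS7 between -0.05 and 0.03. MRPS12, which lines the decoding centre, had 91.4 FPKM with XY101 and 101 FPKM with vehicle (-0.15). The intervals depend on an assumed transcript length, and with the longest annotated transcript in place of the median one that of MRPS33 was 0.03 to 0.44 and that of MRPS28 -0.52 to -0.04, neither including 0.

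The symbols do not place every protein in the subunit they name. MRPS18A and MRPS30 sit in the large subunit of the human mitoribosome, and MRPS36 belongs to the 2-oxoglutarate dehydrogenase complex. MRPS30 had 35.6 FPKM with XY101 and 42.0 FPKM with vehicle (-0.24), and MRPS36 had 17.1 and 17.2 FPKM in the XY101 and the vehicle library (-0.004). Sorted by place in the structure, 51 large-subunit genes had a median log2 ratio of -0.06 and 26 small-subunit genes -0.11, little different from the medians by symbol. By the naming of the structures, which counts MRPS18A and MRPS18B as mitochondria-specific although both are relatives of bacterial S18, the 30 bacterial-type and the 21 mitochondria-specific large-subunit proteins both had a median of -0.06, with 12 and 9 genes above 0. In the small subunit the 16 bacterial-type proteins had a median of -0.10 with 3 above 0, and the 10 mitochondria-specific proteins a median of -0.15 with 3 above 0. The share above 0 over all genes was 64.4%.

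The stalk, the flexible arm that recruits the translation factors, had a median of -0.15, lower than the exit tunnel and central protuberance groups. All 5 of its genes were below 0, beside 65.4% of all members and 35.3% of all genes. Besides MRPL12 and MRPL54 it holds MRPL10, with 66.9 FPKM with XY101 and 74.3 FPKM with vehicle (-0.15), MRPL53 (-0.10) and MRPL11, with 96.5 FPKM with XY101 and 101 FPKM with vehicle (-0.06). The 5 stalk genes summed to 651 FPKM with XY101 and 747 FPKM with vehicle. The mitochondria-specific small-subunit proteins also had a median of -0.15. Members at a mean of 50 to 100, 100 to 200 and 200 to 700 FPKM had medians of -0.05, -0.14 and -0.15. The structural groups were not matched for level. The exit tunnel and its contact with the membrane gave a median of -0.09 over 6 genes. Within it MRPL17 and MRPL24 were low, as above, MRPL23 had 74.6 FPKM with XY101 and 82.5 FPKM with vehicle (-0.14), and MRPL22 had a ratio of -0.04. MRPL45, which anchors the ribosome to the inner membrane, was nearly equal, with 54.1 FPKM with XY101 and 53.9 FPKM with vehicle, and MRPL47 had 31.5 and 29.2 FPKM (0.11). The central protuberance, at the top of the large subunit, gave a median of -0.08 over 7 genes, with values between -0.19 and 0.15. At its lower end was MRPL58, a peptidyl-tRNA hydrolase now built into the ribosome, with 59.4 FPKM with XY101 and 67.6 FPKM with vehicle. MRPL27 had a log2 ratio of -0.11, MRPL38 -0.10, MRPL48 -0.08, MRPL46 0.11 and MRPL18 0.01, and MRPL40 was the highest of the group. These groups of 5 to 7 genes are described by their values only.

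Because ratios in these libraries varied with the level of a gene, the members were also set beside other genes of the same level. Genes other than members had a median log2 ratio of 0.14 at a mean of 1 to 20 FPKM, 0.07 at 20 to 50, 0.04 at 50 to 100, 0.0004 at 100 to 200 and -0.02 at 200 to 700 FPKM. In the same bands the members had medians of -0.03 (14 genes), -0.03 (17 genes), -0.05 (26 genes), -0.14 (16 genes) and -0.15 (5 genes). Each of the 5 member medians was thus below that of other genes in its band, and 12, 13, 18, 14 and 4 members of the bands were below it. Across the 78 members the ratio was weakly related to the level (Spearman's rho -0.24, a description across genes of the same 2 libraries).

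**Figure D3:**
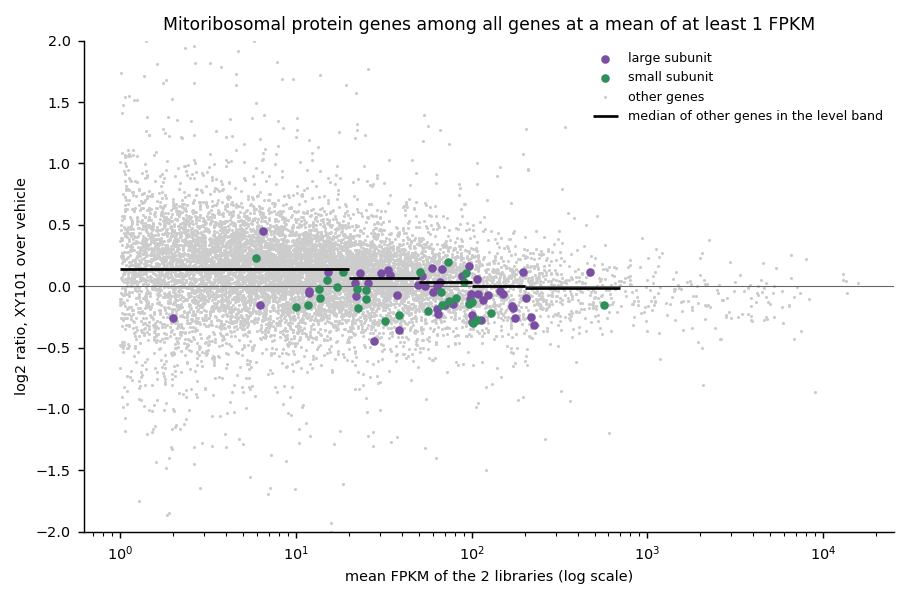
Log2 ratio of XY101 over vehicle against mean FPKM of the 2 libraries (log scale) for the 10894 genes at a mean of at least 1 FPKM, with large-subunit members in violet, small-subunit members in green, other genes in grey and a black line at the median of the other genes in each level band; 28 genes lie beyond the vertical axis. The members sit within the cloud of other genes between -0.45 and 0.45, with band medians of -0.03 to -0.15 against 0.14 to -0.02 for other genes.

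Mitoribosomal proteins that carry other names showed both directions. CHCHD1 had 56.7 FPKM with XY101 and 71.5 FPKM with vehicle (-0.33), and GADD45GIP1 had 25.5 and 30.2 FPKM (-0.25). PTCD3, a pentatricopeptide-repeat protein of the small subunit, had 4.66 FPKM with XY101 and 3.49 FPKM with vehicle (0.41). DAP3, a GTP-binding protein of the small subunit (67.7 and 67.1 FPKM), and AURKAIP1 (205 and 206 FPKM) were nearly equal in the XY101 and the vehicle library. The median of the 5 genes was -0.006.

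The genes that assemble and serve the mitoribosome were spread on both sides of 0. The 27 assembly genes had a median log2 ratio of 0.02, with 15 above 0 and 12 below, which became -0.08 when ratios were centred on the median gene. Of all genes, 64.4% were above 0. Below the median gene lay 63 of the 78 members and 19 of the 27 assembly genes. Their lowest was the pseudouridine synthase RPUSD3, at 40.5 FPKM with XY101 and 55.2 FPKM with vehicle (-0.44), and their highest was RCC1L, at 28.0 and 23.0 FPKM (0.28). The methyltransferase MRM2, which modifies the large-subunit RNA, had 47.6 FPKM with XY101 and 39.4 FPKM with vehicle (0.27), and the most abundant, C1QBP, had 229.7 and 259.9 FPKM (-0.18). The 16 translation factors had a median of -0.03, with 6 above 0, which became -0.12 when centred, and ranged from MTRF1 at 1.89 FPKM with XY101 and 2.36 FPKM with vehicle (-0.31) to MTRF1L, a release factor, at 4.11 and 3.12 FPKM (0.39). The elongation factor TUFM had 186 FPKM with XY101 and 197 FPKM with vehicle (-0.09), and SLIRP, an RNA-binding protein, had 575 and 589 FPKM (-0.03). Of the 16 translation factors, 11 lay below the median gene. None of the assembly and translation genes reached 1.5-fold.

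The 20 genes for charging mitochondrial tRNAs had a median of 0.02, with 12 above 0, which became -0.08 when centred. Of these, 16 lay below the median gene. VARS2, the valyl-tRNA synthetase, was the lowest at 17.8 FPKM with XY101 and 25.7 FPKM with vehicle (-0.53), and PARS2, the prolyl-tRNA synthetase, the highest at 5.45 and 4.55 FPKM (0.26). The most abundant, CARS2, had 49.7 FPKM with XY101 and 55.9 FPKM with vehicle (-0.17), and IARS2 had 46.6 and 45.9 FPKM (0.02).

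The 6 genes of mitochondrial transcription had the highest median of these lists, 0.29, with 4 above 0, which became 0.19 when centred. Set against the median gene, 4 were again above. TFAM, which packages mitochondrial DNA and starts its transcription, had 34.2 FPKM with XY101 and 23.9 FPKM with vehicle (0.52), and TEFM, the elongation factor, had 13.1 and 9.65 FPKM (0.44). MTERF1, which binds within the mitochondrial genome and can stop transcription there, was the single gene of these lists past 1.5-fold, at 2.08 FPKM with XY101 and 1.34 FPKM with vehicle (0.60), and it no longer passed when centred (0.51) or with a pseudocount of 1 FPKM (0.40). The polymerase POLRMT had 15.6 FPKM with XY101 and 17.2 FPKM with vehicle (-0.14), and MTERF2 had 0.91 and 1.3 FPKM (-0.47), so the list did not lie on one side.

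Of the 13 proteins encoded by mitochondrial DNA, which the mitoribosome translates, 9 had values, with a median log2 ratio of 0.04 that became -0.05 when centred. MT-ND4 was the lowest, at 2222 FPKM with XY101 and 2994 FPKM with vehicle (-0.43), and MT-ND2 the highest, at 1317 and 1094 FPKM (0.27). The highest FPKM values were those of MT-ATP8 and MT-ND3, with 13749 and 13366 FPKM with XY101 and 13358 and 12492 FPKM with vehicle. These levels too depend on the length assumed for each gene. Among 7 regulators of nuclear genes for mitochondria above the filter, 3 were above 0 and 4 below. Set against the median gene, 5 of the 7 were below. MYC had 63.5 FPKM with XY101 and 80.2 FPKM with vehicle (-0.34), and ESRRA 69.2 and 80.2 FPKM (-0.21). GABPA, the DNA-binding subunit of GABP, had 2.38 FPKM with XY101 and 1.67 FPKM with vehicle (0.49), YY1 22.2 and 19.7 FPKM (0.17), and NRF1 4.29 and 4.7 FPKM (-0.13). The coactivators PPARGC1A and PPARGC1B were below 1 FPKM in both libraries.

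**Figure D4:**
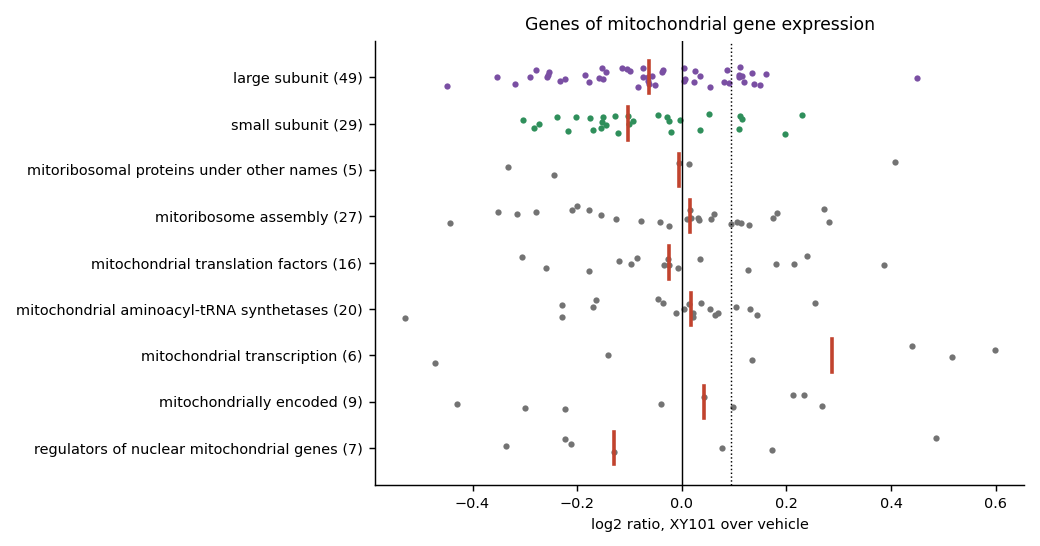
Log2 ratio of XY101 over vehicle for each gene (points) of the 2 subunits and of the related lists, with the number of genes in parentheses, red bars at list medians and a dotted line at the median of all genes (0.09). The subunit medians are -0.06 and -0.10, the assembly, translation and tRNA-charging lists lie between -0.03 and 0.02, and mitochondrial transcription is at 0.29.

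Many members share a promoter region with a neighbour transcribed the other way. In GENCODE release 44 on GRCh37, 26 of the 78 members (33.3%) had a coding gene on the opposite strand whose start lay head to head within 1000 bp, 19 of 49 large-subunit genes (38.8%) and 7 of 29 small-subunit genes (24.1%). Among 10730 other coding genes at a mean of at least 1 FPKM the share was 13.7%, and among all 19807 coding genes it was 9.32%. Several neighbours also serve mitochondria. MRPL46 and MRPS11, a pair with one gene of each subunit, start 320 bp apart and had similar ratios (0.11 and 0.05). MRPS12 is paired with SARS2, the mitochondrial seryl-tRNA synthetase (-0.15 and -0.04), MRPL43 with TWNK, the mitochondrial DNA helicase (-0.04 and 0.14), and MRPL47 with NDUFB5, a complex I subunit (0.11 and 0.02).

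Ratios of the neighbours did not track those of the members throughout. MRPL50 and ZNF189, a zinc-finger gene 233 bp away, both had a log2 ratio of 0.45, with ZNF189 at 3.7 FPKM with XY101 and 2.68 FPKM with vehicle. MRPS18B and PPP1R10, a regulator of protein phosphatase 1, lay apart, at -0.27 and 0.48, with PPP1R10 at 21.5 FPKM with XY101 and 15.3 FPKM with vehicle. MRPL49 (0.09) and FAU (-0.27), which encodes a cytosolic ribosomal protein fused to a ubiquitin-like one, also lay on opposite sides. Counting each member with a partner above the filter, 24 in all, 14 were on the same side of 0 as the partner. The pair of MRPL46 and MRPS11 enters this count once for each member. Some partners, such as TWNK of MRPL43 and NCAPD2 of MRPL51, also overlap exons of their member. How reads of such overlaps were assigned is not settled. Members with a divergent partner had a median of -0.05 (26 genes) and those without -0.08 (52 genes).

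**Figure D5:**
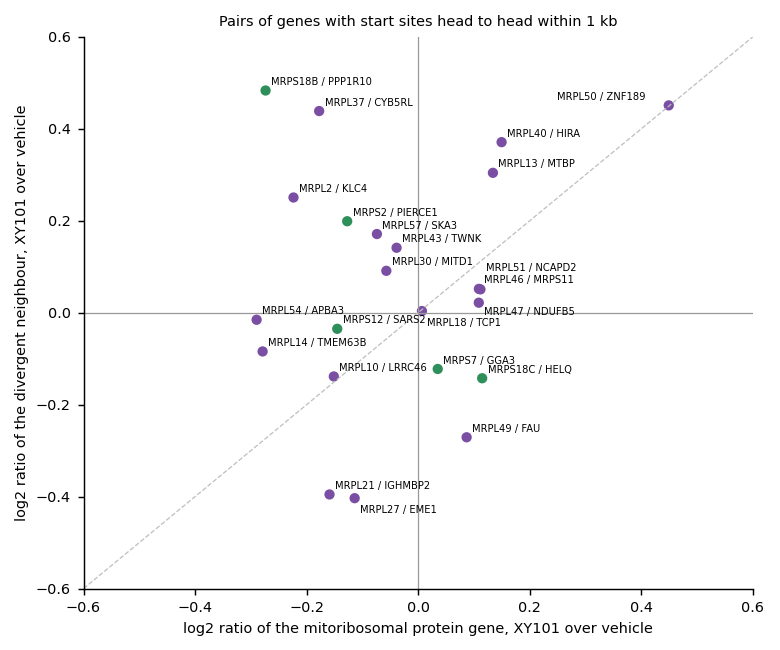
Log2 ratio of the divergent neighbour against that of the mitoribosomal protein gene (violet for large, green for small subunit), XY101 over vehicle, for pairs whose neighbour has a mean of at least 1 FPKM, with the MRPL46 and MRPS11 pair drawn once and a dashed line where both ratios are equal. MRPL50 and ZNF189 lie together at 0.45, whereas MRPS18B (-0.27) and PPP1R10 (0.48) lie apart.

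Promoter sequences were matched for 70 of the 78 members. The 8 others were MRPL2, MRPL10, MRPL13, MRPL15, MRPL21, MRPL23, MRPL35 and MRPS28. CCGGAAG, shown above for MRPS34, MRPS22 and MRPL51, was in 29 promoters (41.4%), against 20.4% of 8905 other genes at a mean of at least 1 FPKM and 10.7% of all 27305 promoters. AAGATGGCG, shown for MRPL52, MRPL50 and MRPS24, was in 13 (18.6%), against 4.2% of the other genes and 1.85% of all promoters. Of its 14 matches, 10 were after the start and 12 on the gene's own strand, whereas of 39 ETS matches 6 were after the start. AAGATGGCG holds ATG, the letters of a start codon. Whether its matches fall on the start of translation was not tested, so its share may not be one of promoter motifs alone. The NRF1 motif was in 1 member promoter, that of MRPL17 (1.43%, against 2.43% of the other genes and 1.36% of all promoters), and the E-box CACGTG, which MYC can bind, in 7 (10%, against 10.6% and 7.43%). Both strands were searched, and no one of these motifs contains another.

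The motifs did not sort the members by their ratio. Members with an ETS match had a median log2 ratio of -0.07 and those without -0.06. With a YY1 match the median was -0.10 and without it -0.06, and with an E-box it was 0.004 and without it -0.07. Within the YY1 group stood both MRPL52 (-0.35) and MRPL50 (0.45), and within the ETS group both MRPS34 (-0.30) and MRPS22 (0.20). MRPL17, with the lowest ratio of all, held neither of these motifs. Either an ETS or a YY1 match was in 38 promoters, both in 4, and none of the 4 motifs in 27.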

How the data were processed

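Poly(A) RNA of HUCCT-1 cells was measured in 1 XY101 and 1 vehicle library. The authors deposited 1 FPKM value per gene and library, rounded to 2 decimals. The methods give a TruSeq library, GRCh37/hg19, BWA, Bowtie 2 and RSEM, whereas the submitters' processing notes list HISAT2, HTSeq 0.11.2, limma 3.40.6, DESeq2, FastQC and GRCh38, with no roles, and the labels a KAPA kit. These accounts differ on aligner, counter and build, which bears on genes with pseudogenes or overlaps. Of 17424 deposited rows, 770 carry only wrapped annotation text instead of a gene, and without them 16654 genes remained.

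Log2((XY101 + 0.1)/(vehicle + 0.1)) was computed, which understates differences of low genes. Genes at a mean of at least 1 FPKM were counted at 1.5-fold, and no test was run. The members and lists were chosen with earlier results of these data known. Named genes were, in each subunit, the 6 highest and 6 lowest ratios and the 5 highest and 5 lowest levels, all members of structural groups, and up to 4 of each other list by ratio or level. MRM2, IARS2, NRF1, YY1, ESRRA, the coactivators, partners and printed promoters were named outside that rule, after their values were seen.

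Depth was estimated by scanning for the fragment total and length offset (300 nt) at which low FPKM values of genes became whole fragments. At 17500000 fragments 82.0% of 128 values with XY101 and 85% of 120 with vehicle were whole within 0.2. Exact binomial intervals (95%) made from it use the median length of coding transcripts (GENCODE release 44, GRCh37) and cover counting error only. Steps were tested on simulated data with counting error only. The planted differences were larger than those of any member, so small ratios and the intervals were not tested in this way. Alternatives covered the pseudocount, filter, threshold, centring, rescaling and the subunit of each protein. Calculations ran in Python 3.11.15 with scipy 1.17.1, numpy 2.4.6 and pandas 2.3.3, and plots were drawn with matplotlib 3.10.9.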

Additional observations from a re-analysis of the deposited data

How the results depend on the processing

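Centred on the median gene, the median log2 ratio was -0.16 for the large subunit (10 genes above 0 and 39 below) and -0.20 for the small subunit (5 above and 24 below). Rescaled to an equal sum of FPKM in both libraries, which adds 0.04 to every log2 ratio, the medians were -0.020 (22 above and 27 below) and -0.059 (11 above and 18 below). Both scalings moved members across 0, 10 large-subunit and 2 small-subunit genes with centring and 2 and 4 with rescaling. A pseudocount of 1 or 0.01 FPKM moved none. No member passed 1.5-fold under any pseudocount, filter or scaling, and lowering the threshold to a log2 ratio of 0.322 gave 3 large-subunit genes and no small-subunit gene. Over all genes, 787 were at least 1.5-fold apart (534 higher and 253 lower), against 464 with a pseudocount of 1 FPKM, 2006 with no filter and 357 at a mean of at least 5 FPKM, and against 203 at 2-fold and 2875 at a log2 ratio of 0.322. The split of higher and lower was 336 and 366 when centred and 666 and 220 when rescaled. Of 94 other results, 24 moved by more than their error or spread when centred, 1 with a pseudocount of 1 FPKM, and 1 of the 16 lists recomputed with no filter. The 24 that moved when centred included the medians of all 16 lists, and the others were single members. No paired analysis was possible because each condition has 1 library and the labels give them no shared replicate number, and no library could be left out for the same reason. Depth limits low members most, such as MRPS33, MRPL19 and MRPL42, whose counting intervals are wide.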

Other observations

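Other genes for ribosomes and respiratory complexes, lists added after the members' values were seen, gave ratios of a similar size. The 79 genes for cytosolic ribosomal proteins had a median log2 ratio of -0.09, with 18 above 0 and 61 below, and none was 1.5-fold apart. The 78 nuclear genes for oxidative phosphorylation subunits had a median of -0.04, with 33 above 0 and 45 below, and only COX6B2, the testis form of a complex IV subunit, was 1.5-fold or more apart, at 1.88 FPKM with XY101 and 4.77 FPKM with vehicle (-1.30). The 78 mitochondrial ribosomal protein genes, with a median of -0.07, 27 above 0 and 51 below, lay between these lists. Of all genes, 64.4% were above 0 and 35.3% below. The 3 lists were not compared by a test, since each condition has 1 library.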
